A study of Mus musculus with 2 samples.

Results

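Mir208a, Mir208b and Mir499 are microRNA (miRNA) hairpins, each inside an intron of a myosin heavy chain gene, namely Myh6, Myh7 and Myh7b. They were taken by name from GENCODE M21, the gene annotation used for the deposited tables, and all 3 were found among 2202 annotated miRNA genes. Hearts of adult male 5xFAD/CAST mice, 8 to 10 months old and obtained from The Jackson Laboratory, were profiled by microRNA-seq, in which small RNAs are sequenced. The 5xFAD transgenes drive amyloid formation in neurons under a neuronal promoter, so the line is a model of brain rather than heart disease. CAST denotes an inbred strain descended from wild-caught mice. The series holds 2 libraries, which the labels name biological replicates 1 and 2 of a single group. Both are labelled 5xFAD/CAST, so no library labelled as free of the transgene was compared. No other treatment, age, sex or strain was compared. The labels give the replicates separate biosamples under a single donor entry and do not state that they came from separate animals. Each difference and p-value below therefore compares these libraries only, and the spread may be technical.

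Heart muscle cells make force with myosin heavy chains, and the choice among them sets how fast the fibre contracts. Myh6 encodes the fast alpha chain, the main form in adult mouse ventricle, and Myh7 the slow beta chain, which prevails before birth and in slow skeletal muscle. Each host transcript carries a miRNA in an intron. In mouse, miR-208a, from Myh6, is known to be needed for the rise of the beta chain under cardiac stress, and to act upstream of miR-208b and miR-499, which favour the slow muscle programme. A miRNA pairs with its target messenger RNAs mainly through its seed, bases 2 to 8 from the 5′ end.

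The 3 mature miRNAs are shown because they share most of that seed. They are RefSeq sequences on GRCm38.p6, with the seed in capitals and the rest in lower case.
miR-208a-3p: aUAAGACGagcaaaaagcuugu
miR-208b-3p: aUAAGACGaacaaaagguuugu
miR-499-5p: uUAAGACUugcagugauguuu
Bases 2 to 7 were the same in all 3, and among 1738 mature mouse miRNAs in the RefSeq table used here 0 others had them. Over bases 2 to 8, miR-208a-3p and miR-208b-3p remained alike, while miR-499-5p differed from miR-208a-3p by G8U, with positions counted from 1 at the 5′ end and the base of miR-208a-3p given first. Over their 22 positions miR-208a-3p and miR-208b-3p differed at 3, which were G10A, A16G and C18U, the base of miR-208a-3p first. Against miR-208a-3p, miR-499-5p was the same at 12 of 21 positions, 6 of them in bases 2 to 7.

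The hairpins are shown because the deposited counts are per hairpin, so reads of both arms are summed. Capitals mark the mature miRNA listed above.
Mir208a: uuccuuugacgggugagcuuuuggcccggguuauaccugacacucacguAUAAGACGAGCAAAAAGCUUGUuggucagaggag
Mir208b: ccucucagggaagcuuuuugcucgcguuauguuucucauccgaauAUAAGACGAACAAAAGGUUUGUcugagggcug
Mir499: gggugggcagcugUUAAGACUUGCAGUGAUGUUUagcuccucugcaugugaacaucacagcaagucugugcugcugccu
The miR-208 sequences lie in the 3′ arm, from base 50 to 71 of the Mir208a hairpin and from base 46 to 67 of the Mir208b hairpin. The miR-499-5p sequence lies in the 5′ arm, from base 14 to 34. The full hairpins of Mir208a and Mir208b were identical in 62.7% of the columns of a global alignment.

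On mm10 (GRCm38), Mir208a (ENSMUSG00000065432.1, 83 nt) lies on the minus strand at chr14:54949060-54949142, and Mir208b (ENSMUSG00000077928.1, 77 nt) on the minus strand at chr14:54975700-54975776. They are 26557 bases apart, in the neighbouring genes Myh6 and Myh7, which are themselves separated by 3756 bases and read in the same direction. Mir499 (ENSMUSG00000076312.1, 79 nt) lies on the plus strand at chr2:155622880-155622958. Every hairpin is wholly intronic and on the strand of its host, and overlaps no annotated gene apart from that host. Mir208a is in intron 29 of the longest coding Myh6 transcript, which has 39 exons, and Mir208b is in intron 31 of the longest coding Myh7 transcript, which has 41 exons. In both transcripts 10 exons follow that intron. Mir499 is in intron 19 of the longest coding Myh7b transcript, which has 42 exons, and 23 exons follow it. The introns are 542, 461 and 481 nt long for Mir208a, Mir208b and Mir499. Within 50000 bases of a member, the only other miRNA gene in the tables was the miR-208 partner on chromosome 14.

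**Figure D1:**
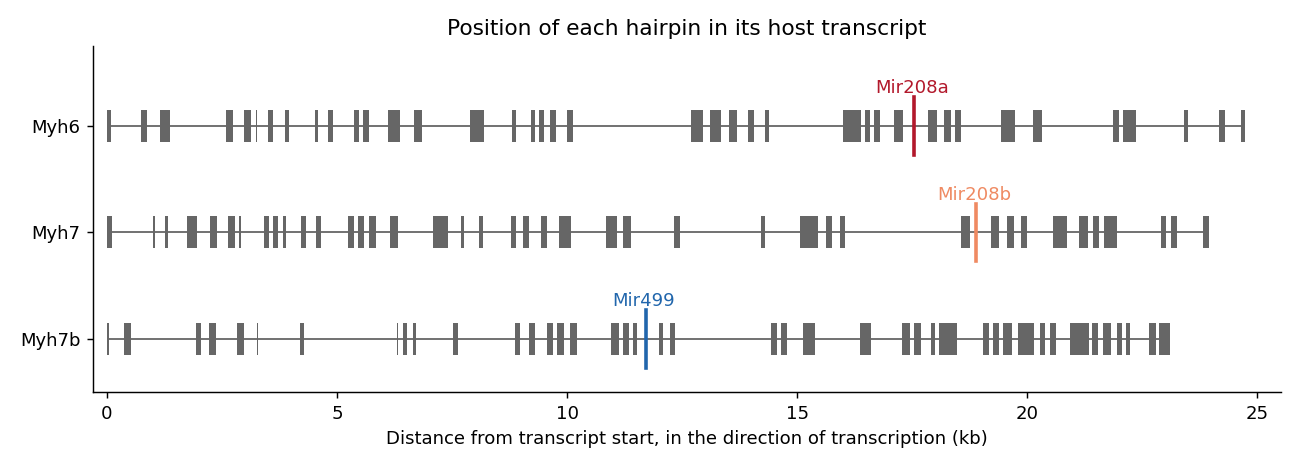
The longest coding transcripts of Myh6, Myh7 and Myh7b drawn from their start (x axis, kb in the direction of transcription), with exons as grey boxes and each hairpin as a coloured bar. Mir208a and Mir208b sit late in their transcripts, with 10 exons after them, and Mir499 near the middle, with 23 exons after it.

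The libraries held 3889280 sense counts in replicate 1 and 5058613 in replicate 2, a sense count being a read given to a miRNA gene on its own strand. Levels are CPM, sense counts scaled to a common library total of 1e6. Reads aligned to several places, 42.3% and 46.8% of all reads in the tables, were given to no gene. None of the 3 hairpins shared a stretch of 20 nt with another of the 2201 hairpins in the tables. Copies outside annotated transcripts were not searched for. The nearest other hairpin differed from the mature sequence by at least 3 bases for Mir208a and Mir208b, each being the other's nearest, and by 4 for Mir499. By contrast 7 of 8 other muscle miRNA genes examined, all but Mir206, shared such a stretch with another hairpin. Matches on either strand were counted, so a shared stretch need not mean that reads align to several places. Reads from CAST alleles that differ from the reference could align less well, and the effect on the 3 hairpins was not tested.

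Mir208a, the hairpin of the fast myosin gene Myh6, had 15109 sense counts in replicate 1 and 7513 in replicate 2. Replicate 1 thus had a level of 3885 CPM (95% Clopper-Pearson interval 3823 to 3947) and replicate 2 of 1485 CPM (1452 to 1519), a mean of 2685 ± 1697 CPM (SD, n = 2). Replicate 1 was the higher, and the counting intervals, which cover counting error only, did not overlap.

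Mir499, the hairpin of Myh7b, had 10625 sense counts in replicate 1 and 29787 in replicate 2. Its level was 2732 CPM (2680 to 2784) and 5888 CPM (5822 to 5955), a mean of 4310 ± 2232 CPM (SD, n = 2). Here replicate 2 was the higher, again with intervals that did not overlap.

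Mir208b, the hairpin of the slow myosin gene Myh7, had 446 sense counts in replicate 1 and 286 in replicate 2. Its level was 115 CPM (104 to 126) and 56.5 CPM (50.2 to 63.5), a mean of 85.6 ± 41.1 CPM (SD, n = 2). Like its neighbour Mir208a, it was higher in replicate 1.

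The order of the 3 was not the same in both libraries. Mir208a was first in replicate 1 and Mir499 first in replicate 2, while Mir208b was last in both. Per nucleotide of hairpin, replicate 1 held 182 counts of Mir208a, 134 of Mir499 and 5.79 of Mir208b, and replicate 2 held 90.5, 377 and 3.71. The means of Mir499 and Mir208a differed by less than the spread of either between the libraries. Mir208b lay below both by more than its spread.

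**Figure D2:**
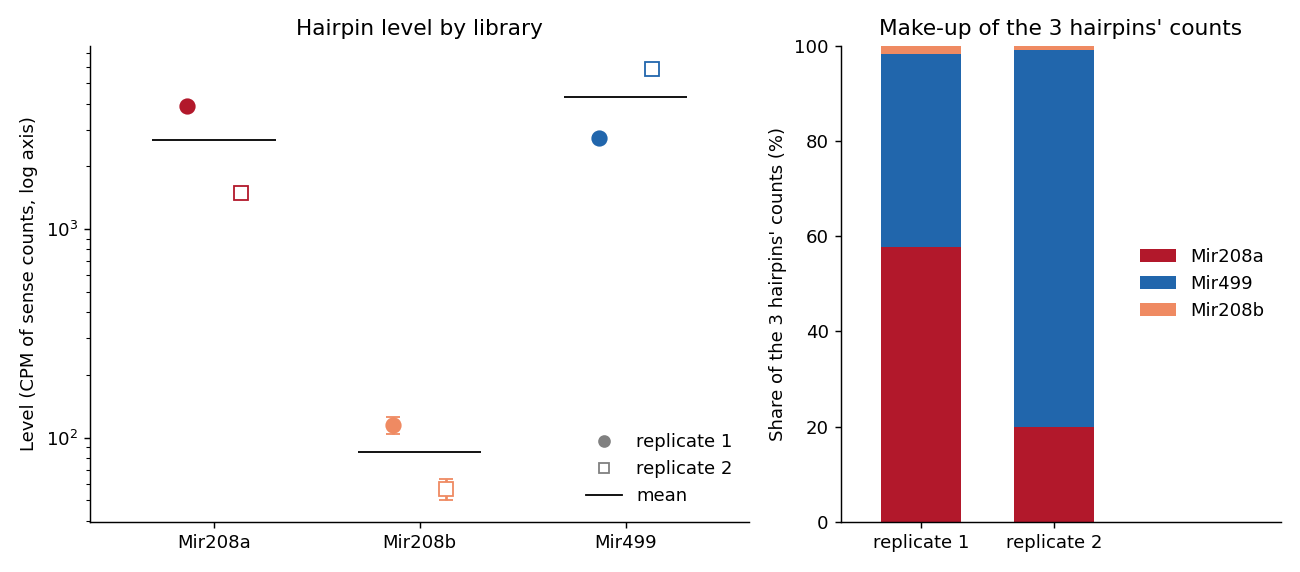
Left, level of each hairpin (y axis, CPM of sense counts, log axis) in replicate 1 (filled circle) and replicate 2 (open square), with 95% Clopper-Pearson intervals and the mean as a line. Right, share of the 3 hairpins' summed counts taken by each in either library (y axis, percent), where Mir208a has 57.7% in replicate 1 and Mir499 has 79.3% in replicate 2.

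The 3 hairpins together took 0.673% (0.665 to 0.681) of replicate 1's sense counts and 0.743% (0.736 to 0.751) of replicate 2's, a mean of 0.708% ± 0.049 (SD, n = 2). Their sum was thus closer between the libraries than any single member, at 1.10-fold higher in replicate 2 in CPM. After the TMM scaling described below it was 1.20-fold higher. Mir208a and Mir499 differed in opposite directions, so by arithmetic the fold of the sum lies between theirs. The make-up of that sum differed. Mir208a gave 57.7% of it in replicate 1 and 20.0% in replicate 2. Mir499 gave 40.6% and 79.3%. Mir208b gave 1.70% in replicate 1 (1.55 to 1.87) and 0.761% in replicate 2 (0.676 to 0.854).

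Ratios between members within a library do not depend on how libraries are scaled. They are ratios of counts, and whether the different sequences were captured equally well was not tested. The ratio of Mir208a to Mir208b, the miRNAs of the alpha and beta chain genes, was 33.9 in replicate 1 and 26.3 in replicate 2, or 31.4 and 24.4 per nucleotide of hairpin. In either library Mir208b was thus a small part of the pair, at 2.87% (2.61 to 3.14) of their summed counts in replicate 1 and 3.67% (3.26 to 4.11) in replicate 2. The ratio was 1.29-fold higher in replicate 1 (adjusted p = 0.00218, two-sided Fisher's exact test, adjusted over 411 genes each set against Mir208b). Of those genes, 65.5% changed their ratio to Mir208b by this test, which covers counting error only.

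The ratio of Mir499 to Mir208a was 0.703 in replicate 1 (0.686 to 0.721) and 3.96 in replicate 2 (3.87 to 4.07), or 0.739 and 4.17 per nucleotide. It lay on opposite sides of 1 in the libraries and was 5.64-fold higher in replicate 2. The adjusted p was below 1e-300 by the same Fisher's exact test, with 76.2% of genes changing their ratio to Mir208a. The ratio of Mir499 to Mir208b was 23.8 in replicate 1 (21.7 to 26.2) and 104 in replicate 2 (92.7 to 117). That is 4.37-fold higher in replicate 2 (adjusted p = 1.10e-82, Fisher's exact test). Both ratios that involve Mir499 thus moved much farther than the ratio of the miR-208 neighbours.

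**Figure D3:**
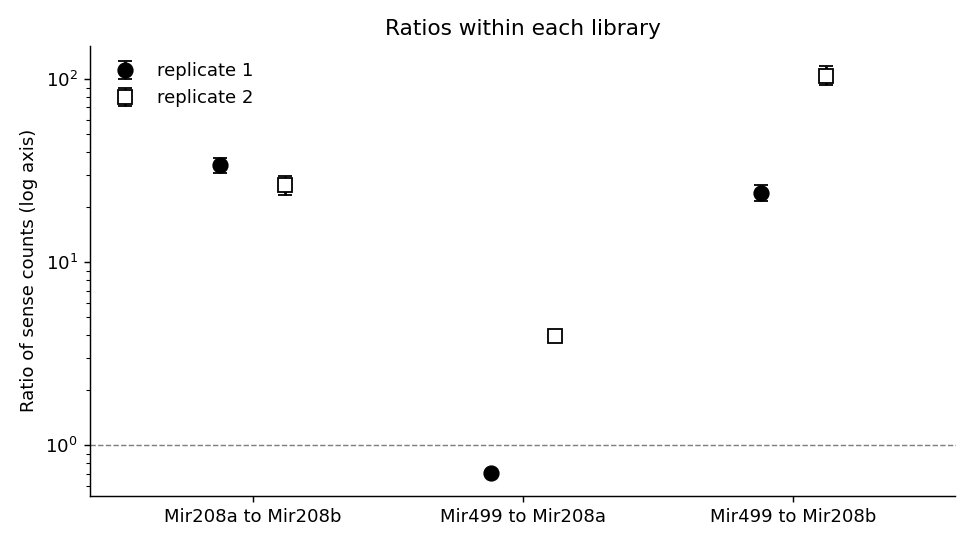
Ratio of sense counts between members (y axis, log axis) in replicate 1 (filled circle) and replicate 2 (open square), with 95% exact intervals and a dashed line at 1. The Mir208a to Mir208b ratio is 33.9 and 26.3, while the Mir499 to Mir208a ratio is 0.703 and 3.96, on both sides of the line.

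Set against all genes after TMM scaling, which matches the bulk of genes between the libraries, all 3 members differed by a two-sided exact binomial test adjusted over 412 tested genes. This test called 45.4% of the tested genes. In 22.8% replicate 1 was the higher, and in 22.6% replicate 2 was. A called member alone is therefore close to what the table as a whole shows. With total counts in place of TMM, 60.3% of the called genes were higher in replicate 1, against 50.3% with TMM, and the median log2 ratio of detected genes moved to 0.12.

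Mir208a was 2.40-fold higher in replicate 1 (exact interval 2.34 to 2.47, adjusted p below 1e-300). Mir208b was 1.85-fold higher in replicate 1 (1.60 to 2.17, adjusted p = 4.12e-16). Mir499 was 2.34-fold higher in replicate 2 (2.29 to 2.40, adjusted p below 1e-300). Mir208a and Mir499 were thus among the 11.9% of tested genes that were called and at least 2-fold apart. Mir208b was not, with a log2 ratio of 0.89, though with total counts its log2 ratio was 1.01.

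Genes of like level give a closer frame, since calls depend on depth. Of 23 other detected genes within 2-fold of the mean level of Mir208a, 21 were called, their median difference was 1.30-fold, and 4 were at least as far apart as Mir208a. Of 19 such genes around Mir499, 18 were called, the median was 1.38-fold, and 4 were at least as far apart. Of 56 such genes around Mir208b, 36 were called, the median was 1.31-fold, and 8 were at least as far apart. These counts take both directions together. In the direction of the member, 1 gene was at least as far apart for Mir208a, 2 for Mir499 and 1 for Mir208b. Each member was thus farther apart than most genes of its level but within the range they covered.

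**Figure D4:**
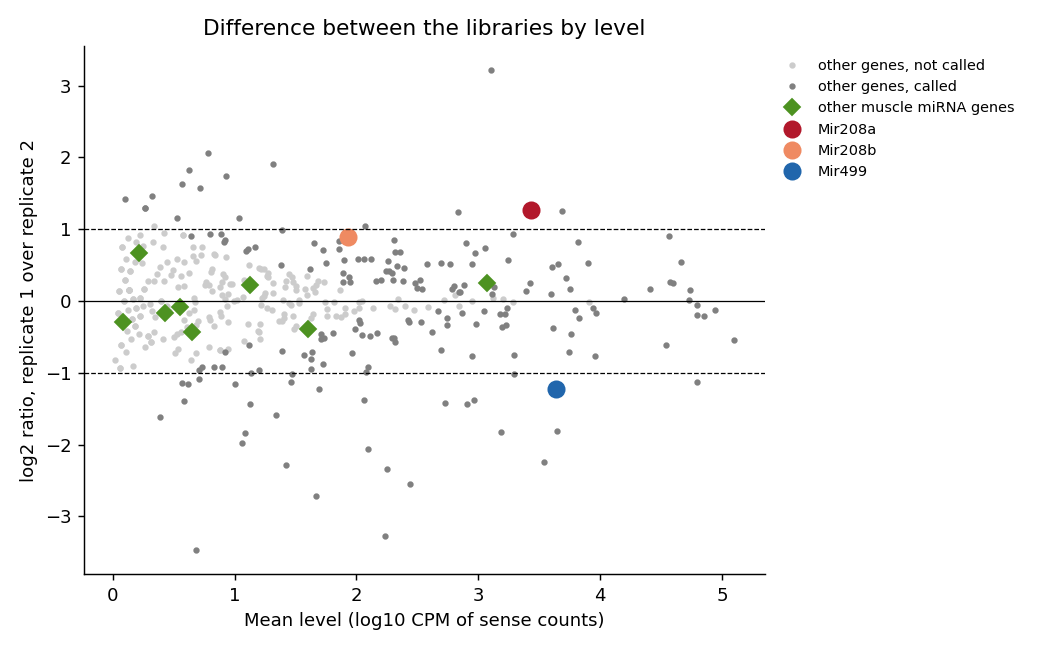
Difference between the libraries (y axis, log2 ratio of replicate 1 over replicate 2 after TMM scaling) against mean level (x axis, log10 CPM) for 412 tested genes, with dashed lines at 2-fold. Mir208a and Mir208b lie above 0 and Mir499 below it, while the other muscle miRNA genes (diamonds) lie inside the dashed lines.

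In the whole profile the 2 abundant members stood high and Mir208b near the middle. Mir499 held rank 36 in replicate 1 and rank 26 in replicate 2, and its mean level exceeded that of 90.5% of 325 detected genes, those with at least 10 counts in both libraries. Mir208a held ranks 32 and 48 and exceeded 88.9%. Mir208b held ranks 121 and 158 and exceeded 56.9%. Among 115 detected genes that lie in an intron of a protein-coding gene on its strand, the mean levels of Mir499, Mir208a and Mir208b were at ranks 14, 15 and 51.

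**Figure D5:**
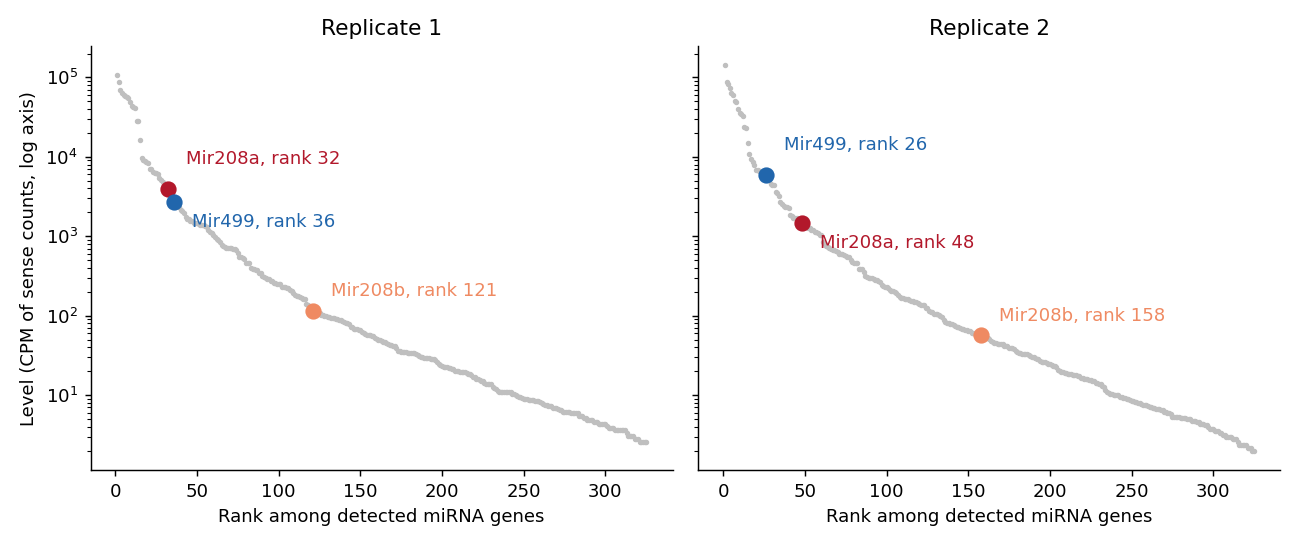
Level (y axis, CPM of sense counts, log axis) of the 325 detected miRNA genes against their rank (x axis) in replicate 1 (left) and replicate 2 (right), with the 3 hairpins coloured. Mir208a and Mir499 exchange places between the libraries, and Mir208b stands at rank 121 and rank 158.

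The genes whose levels lay closest to those of a member, by Euclidean distance in log2(CPM + 1) over the 2 libraries, were all on other chromosomes than it. Mir423 was nearest to Mir208a, at 3781 CPM in replicate 1 and 1433 CPM in replicate 2, a distance of 0.065, followed by Mir214 at 0.63. Mir154 and Mir181a-2 were nearest to Mir208b, at 0.25 and 0.34. Mir140 and Mir322 were nearest to Mir499, at 0.44 and 0.60. This distance joins level and difference, so a near gene need not differ alike. Mir322, at 3704 CPM in replicate 1 and 4434 CPM in replicate 2, was closer between the libraries than Mir499.

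Of 8 other muscle miRNA genes, 1 was called higher in each library. Over all tested genes, 22.8% were called higher in replicate 1 and 22.6% in replicate 2. Mir486, a hairpin of the muscle and red cell gene Ank1, had 1334 CPM in replicate 1 and 1026 CPM in replicate 2 and was called higher in replicate 1 (adjusted p = 6.79e-19, exact binomial test). Mir1a-2, a source of the muscle miRNA miR-1, was at 36.3 CPM in replicate 1 and higher, at 43.9 CPM, in replicate 2 (adjusted p = 0.0259, exact binomial test), a call not made with total counts (adjusted p = 0.148). The other 6, each with at most 59 counts in a library, did not pass the test, which at such depth could miss a difference. Among them Mir206, the skeletal muscle miRNA gene, had 14.9 CPM in replicate 1 and 11.7 CPM in replicate 2, and Mir133b, its cluster partner, was at 3.86 CPM in replicate 1 against 5.14 CPM in replicate 2. The 7 hairpins of miR-1, miR-133 and miR-206 summed to 251 counts in replicate 1 and 351 in replicate 2. The 3 myosin intron hairpins summed to 26180 counts in replicate 1 and 37586 in replicate 2. For 6 of those 7 the shared stretches named above could lower the counts, so the sums cannot be read as relative amounts of miRNA.

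Markers of other cell types were examined beside these differences, since in bulk tissue fewer cells of a type and less RNA per cell cannot be told apart. The endothelial Mir126a was at 87115 CPM in replicate 1 and at 87787 CPM in replicate 2, and after TMM scaling was called 1.10-fold higher in replicate 2. The smooth muscle pair Mir143 and Mir145a summed to 30137 and 41747 CPM, mostly through Mir143, with 28674 CPM against 40225 CPM (replicate 1 first). Mir145a was nearly level, with 1463 CPM against 1522 CPM. After TMM scaling both were called higher in replicate 2, Mir143 by 1.53-fold and Mir145a by 1.13-fold. The 4 fibroblast hairpins of miR-199 and miR-214 summed to 2610 and 1265 CPM, nearly all from Mir214. That hairpin was called 1.90-fold higher in replicate 1. Mir199a-2, with 20 counts in replicate 1 and 17 in replicate 2, did not pass the test. Neither did Mir199b, with 29 counts in replicate 1 and 41 in replicate 2, and Mir199a-1 had 0 counts. The red cell pair Mir451a and Mir144 summed to 320 CPM in replicate 1 against 217 CPM in replicate 2, but its members differed in opposite directions. Mir451a was called higher in replicate 1, where it had 288 CPM against 165 CPM in replicate 2 (adjusted p = 1.17e-24, exact binomial test). Mir144 was at 32.1 CPM in replicate 1 and was called higher in replicate 2, at 52.4 CPM (adjusted p = 2.84e-07, exact binomial test). The 4 leukocyte hairpins Mir142, Mir150, Mir155 and Mir223 summed to 6830 CPM in replicate 1 against 5000 CPM in replicate 2, mostly through Mir155, which had 4873 CPM against 3211 CPM. The other 3 did not pass the test, though Mir150, at 1672 CPM in replicate 1 against 1510 CPM in replicate 2, was called with total counts (adjusted p = 6.36e-09, exact binomial test). The skeletal muscle pair Mir206 and Mir133b summed to 18.8 and 16.8 CPM, below each member. Mir133b is among the hairpins with a shared stretch, so this sum cannot be read as a relative amount of miRNA. The 6 epithelial hairpins summed to 101 and 193 CPM, with Mir205 at 0 counts in replicate 1 and 49 in replicate 2. Of these 6, 4 were called higher in replicate 2 and 0 in replicate 1, where 22.6% of all tested genes were called higher in replicate 2. The 6 neuronal hairpins had 0 counts in replicate 1 and 4 in replicate 2, and the liver hairpin Mir122 stood at 28.8 and 27.1 CPM. For markers outside the muscle list, stretches shared with other hairpins were not examined. Reads aligned to several places could lower their counts, so the low neuronal counts cannot be read as little miRNA. The part of the marker shifts in the members' differences was not tested.

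At all 3 hairpins 0 counts fell on the opposite strand in either library. Such a 0 still permits 3 counts, or 0.0199% and 0.0399% of the sense counts of Mir208a, 0.673% and 1.05% of those of Mir208b, and 0.0282% and 0.0101% of those of Mir499. The column that ignores strand held the same counts as the sense column for each member. Across the tables the opposite strand held 858065 counts in replicate 1 and 1274539 in replicate 2. Of these, 857958 and 1274430 stood at the 64 miRNA genes that overlap another miRNA gene of the tables on the other strand. The members are not among them, and of the 2138 genes without such an overlap only 27 in replicate 1 and 28 in replicate 2 had any opposite-strand count.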

How the data were processed

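MicroRNA-seq libraries from 2 heart samples of a single group were analysed. Per the labels, total RNA was used. The deposited tables hold raw read counts per miRNA gene in 3 columns (strand ignored, and a column for each strand, as judged from layout and values), below 4 summary lines that name no gene. Per the deposited description files, the build is mm10 and the annotation GENCODE M21. Which aligner, counter or read filter was used is not given in the sources used here. These counts are neither normalized nor split by mature arm, and multiply aligned reads are given to no gene, which can lower hairpins with near copies.

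The strand column with the larger total was taken as sense. It held 35.9% and 35.6% of all reads in the tables. The summary lines held 64.1% and 64.4% and stayed out of library sizes and tests. All 2202 identifiers matched GENCODE M21. CPM uses the sense total. TMM factors came from edgeR 4.0.16 on genes with a summed count of at least 10, and alternative size factors from DESeq2 1.42.0. Since a quasi-likelihood test is impossible with 1 group, libraries were compared by exact binomial tests at the ratio of effective sizes, Benjamini-Hochberg adjusted at 0.05 over all tested genes. Folds carry 1 CPM added to both levels. Ratios used Fisher's exact test over all tested genes. Intervals cover the error of counting reads only. No molecular identifiers are recorded in the sources used here, so repeated reads of a molecule could not be merged. Alternatives were another scaling, other count filters, another added value, the column that ignores strand, other denominators and leaving out a replicate.

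The members and lists were chosen with earlier results of these data known. Genes named are the 3 members, the listed muscle genes and markers, and the 2 nearest genes in level to each member. Python 3.11.15 with SciPy 1.17.1 and Biopython 1.88, and R 4.3.3, were used.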

Additional observations from a re-analysis of the deposited data

How the results depend on the processing

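The CPM means depend on the denominator. With all reads in the tables as denominator, Mir208a, Mir208b and Mir499 averaged 962, 30.7 and 1539 CPM. Without the 10 most abundant genes in the denominator they averaged 7730, 248 and 12973 CPM, and with the column that ignores strand 3485, 111 and 5688 CPM. Under 6 other settings each (scaling by total counts or DESeq2 size factors, no count filter or a sum of at least 50, 0.5 CPM added, strand ignored), the log2 ratio of replicate 1 over replicate 2 lay between 1.22 and 1.39 for Mir208a, 0.84 and 1.01 for Mir208b, and -1.28 and -1.11 for Mir499, and all stayed past the test. Between 174 and 199 genes differed, of 387 tested with strand ignored and of 412 tested with total counts. The number tested changed more with the filter. Of 282 genes with a sum of at least 50 counts 175 differed, and of 712 without a count filter 182 differed. Means of 2 libraries say little about stability, since a mean always lies within 1 SD of both. Without replicate 1 and without replicate 2 Mir208a had 1485 and 3885 CPM, and without replicate 1 and without replicate 2 the Mir499 to Mir208a ratio was 3.96 and 0.703, and the Mir499 to Mir208b ratio 104 and 23.8. No paired analysis was possible because both libraries belong to a single group. Depth limits Mir208b most, and 2 libraries limit every spread given here.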
